A study of Sus scrofa with 4 samples.

Results

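BAX, BCL2L1 and GADD45G are 3 genes that bear on whether a stressed cell lives or dies, and their transcripts were followed in porcine (Sus scrofa) blastocysts from oocytes exposed to non-esterified fatty acids (NEFAs). They are 3 of 10024 genes named on the array and 3 of the 4705 named genes with a probe bright enough to test. Each gene had 1 probe, and all 3 probes passed the filter on dim signal. The genes were chosen with measured values of the same comparison in view, in which GADD45G had a higher NEFA value on every array and BAX and BCL2L1 passed a threshold once the dye orientations of 2 arrays were exchanged. The NEFA over control values below are therefore a description of these pools, and no p-value is given for the 3 genes.

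NEFA pools held blastocysts from oocytes exposed to a high NEFA level, and control pools held blastocysts from oocytes of the control treatment. In a blastocyst an outer layer, the trophectoderm, encloses a fluid-filled cavity and the inner cell mass. Embryos were collected on days 7 and 8 and pooled by 10. The design speaks of 4 pools and leaves unsaid if each condition had 4. Each of 4 two-colour arrays compared 1 NEFA pool with 1 control pool, and the 4 arrays are counted here as 4 separate pools of each condition. The NEFA pool was labelled with Cy3 on arrays 1 and 2 and with Cy5 on arrays 3 and 4. The sources used here do not give the fatty acids, their concentration, the breed or how the embryos were produced. The labels call the 4 arrays biological replicates and say nothing of separate cultures or collections, so part of the spread between arrays may be technical. All RNA was amplified before labelling. In pooled embryos, fewer cells of a type and less RNA per cell cannot be told apart.

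Programmed cell death through the mitochondrion is set by proteins of the BCL2 family. BAX forms pores in the outer mitochondrial membrane, which release cytochrome c and start the caspases. BCL2L1 encodes BCL-XL, which binds BAX and the death-promoting BH3-only proteins and so protects the cell, although a shorter splice form of the same gene has the opposite action. The sources used here do not say which splice forms the probe detects. GADD45G is a small nuclear protein of the growth arrest and DNA damage family that binds the kinase MAP3K4 and cell cycle proteins. Some cell death is part of normal blastocyst development, chiefly in the inner cell mass.

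The arrays themselves limit what can be read. Between 38.3% and 49.0% of the 43794 probes exceeded the background limit in a channel. Over 17073 probes the NEFA over control ratios of 2 arrays correlated at between -0.54, for arrays 2 and 4, and 0.16, for arrays 3 and 4, and arrays 1 and 2, which share a dye orientation, at -0.24. These are correlations across probes, which are not independent replicates. The signs of all values rest on the labelled dye orientations, and whether those of arrays 2 and 3 are right was not tested. Of the listed lineage markers, 7 of 12 trophectoderm, 6 of 9 primitive endoderm and 1 of 9 inner cell mass genes were measured, UTF1 being that gene. Of markers of other cells, 2 of 14 cumulus and granulosa genes, 7 of 12 oocyte genes and 2 of 10 sperm genes were measured. Their median NEFA over control values were -0.20 for the cumulus, 0.02 for the oocyte and -0.28 for the sperm list on the log2 scale, and their part in the results below was not tested. The trophectoderm genes together, summed as normalised intensity, lay between 16.18 and 16.39 on the log2 scale in NEFA pools and between 16.04 and 16.42 in control pools. Markers that moved with the 3 genes, and some that did not, are given after them. Of the oocyte and sperm genes not kept, BMP15, TNP1 and ODF1 exceeded the limit in 0 pools. NLRP5, ZAR1, MOS and ZPBP exceeded it in at most 2 pools per probe, and AKAP4 in 3.

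The transcript that promotes death, BAX, was clearly detected in every pool and showed no common direction. Its intensity after background correction was 9.52, 3.61, 3.86 and 12.2 times the background limit in the NEFA pools of arrays 1 to 4, against 9.47, 5.90, 4.32 and 6.59 times in the control pools. On the normalised log2 scale the level was 11.31, 10.07, 10.45 and 11.57 in the NEFA pools, against 10.99, 10.88, 10.46 and 10.63 in the control pools. The NEFA pools of arrays 1 and 4 lay above every control pool, the NEFA pool of array 2 lay below every control pool, and both pools of array 3 were level. The mean was 10.85 ± 0.71 in NEFA pools and 10.74 ± 0.24 in control pools (SD, n = 4 each). The NEFA pools were spread more widely, a difference that was not tested.

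The NEFA over control ratio of BAX was 0.32, -0.81, -0.01 and 0.94 on arrays 1 to 4 on the log2 scale. In linear terms the NEFA pool had 1.25, 0.569, 0.992 and 1.92 times the signal of its control pool. The mean was 0.11 with an SE of 0.26 and an SD of 0.73 over 4 arrays. With 1 array left out, the fit weighs each dye orientation equally, so its estimate is not the mean of the arrays left. This estimate was -0.17 without array 1 and -0.13 without array 4. It was 0.39 with array 2 left out and 0.35 with array 3 left out, so its sign rested on single arrays. With median centring in place of loess the mean was 0.03.

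BCL2L1, the survival gene, was measured at a spot of low signal and had no common direction. Its intensity was 2.18, 1.36, 1.38 and 3.64 times the background limit in the NEFA pools of arrays 1 to 4, against 1.51, 2.34, 1.33 and 0.874 times in the control pools. It thus exceeded the limit everywhere except in the control pool of array 4. The normalised log2 level was 9.20, 8.63, 8.78 and 9.98 in the NEFA pools, against 8.53, 9.52, 8.64 and 7.78 in the control pools. The array 4 control level is thus only a bound. The 2 groups overlapped, with measured means of 9.15 ± 0.60 in NEFA pools and 8.62 ± 0.71 in control pools (SD, n = 4 each).

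The ratio of BCL2L1 was 0.67, -0.88, 0.14 and 2.20 on arrays 1 to 4 on the log2 scale, so 3 of 4 arrays were above 0. The 2.20 of array 4 has a control value that is not above background. Set to the limit, with the loess correction unchanged, that value gives a NEFA signal 4.02-fold higher, or 2.01 on the log2 scale. The mean over the 4 arrays is then 0.48. The 4.02-fold is a lower bound only under the background correction used here. Array 4 was at 1.39 with no correction and at 1.68 with the array's median background. The mean over 4 arrays as measured was 0.53 with an SE of 0.41 and an SD of 1.29. Leaving out array 4 brought the fitted estimate to 0.02 and leaving out array 1 brought it to 0.14. With array 2 left out it was 0.92, and with array 3 left out 1.05. These estimates weigh each dye orientation equally and are not means of the arrays left.

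GADD45G was above background in all 8 channels, by 1.83, 2.65, 1.64 and 2.24 times the limit in the NEFA pools of arrays 1 to 4, against 1.87, 2.27, 1.23 and 1.46 times in the control pools. Its normalised log2 level was 8.95, 9.62, 9.04 and 9.27 in the NEFA pools, against 8.83, 9.51, 8.54 and 8.51 in the control pools. Each NEFA pool was above its own control pool, while across arrays the groups overlapped because both pools of array 2 were high. The means were 9.22 ± 0.30 in NEFA pools and 8.85 ± 0.46 in control pools (SD, n = 4 each).

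The ratio of GADD45G was 0.12, 0.11, 0.50 and 0.76 on arrays 1 to 4, above 0 on 4 of 4, with a mean of 0.37, an SE of 0.14 and an SD of 0.32. Of all probes tested without a flagged spot, 3.56% (607 of 17073) were above 0 on 4 of 4 arrays. The pair of arrays with NEFA in Cy3 averaged 0.11 and the pair with NEFA in Cy5 averaged 0.63. Leaving out 1 array gave fitted estimates of 0.31 to 0.44, again with equal weight on each dye orientation. The size depended on how the pixels of a spot were summarised: with the mean of the pixels in place of the median, an alternative chosen after seeing the data, the ratios were 0.16, -0.07, 0.22 and 0.35 and their mean was 0.17.

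Some lineage and cell markers moved with the 3 genes from array to array, and others moved opposite to BAX and BCL2L1. The markers named here were singled out after their values were seen. The 7 measured trophectoderm genes, summed as normalised intensity, differed between NEFA and control by 0.28, -0.24, 0.11 and 0.21 on arrays 1 to 4 on the log2 scale. These signs are those of BCL2L1 on 4 of 4 arrays and those of BAX on arrays 1, 2 and 4. The signs that BAX and BCL2L1 share on arrays 1, 2 and 4 were found in 18.2% of all probes. TFAP2C, a transcription factor of that lineage, is the brightest of these genes and weighs most in the sum. It was at 0.48, -0.48, 0.36 and 0.51. Of the 7 genes, 3 had a mean above 0 and 4 below, with a list median of -0.14. The other 2 above 0 were TEAD4 at 0.14 and TFAP2A at 0.08. Those below were GATA2 at -0.24, GATA3 at -0.35, ELF5 at -0.35 and DAB2 at -0.14. ELF5 was lower on 4 of 4 arrays. GATA3 and ELF5, with 2 and 0 NEFA pools and 3 control pools each over the limit, were kept through the control pools alone. Opposite to BAX and BCL2L1 on arrays 1, 2 and 4 ran the summed primitive endoderm genes, at -0.48, 0.44, 0.07 and -0.05 on arrays 1 to 4. So did the inner cell mass gene UTF1, at -0.06, 0.16, 0.05 and -0.15, and the summed sperm genes, at -0.20, 0.06, -0.03 and -0.95. UTF1 exceeded the limit in 3 NEFA and 2 control pools, so it was kept through the NEFA pools alone. The sperm gene ODF2, with 1 NEFA and 3 control pools over the limit, was kept through the control pools alone. The same held for the primitive endoderm gene APOA1, with 2 NEFA and 3 control pools.

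AMH, a hormone of granulosa and cumulus cells, was at 0.72, -1.46, -0.39 and 1.40, with the sign of BAX on 4 of 4 arrays and that of BCL2L1 on arrays 1, 2 and 4. FST, the other measured gene of the 14 on the cumulus list, was at -0.98, -0.21, 0.15 and -0.82. The sum of both genes lay between 12.04 and 13.64 on the log2 scale in NEFA pools and between 12.40 and 13.25 in control pools. FSHR, a defining receptor of these cells, had no named probe here, and INHBA exceeded the limit in 0 pools. Other genes of this list that were not kept exceeded it in some pools: PTX3 in 4, LHCGR in 3 and HAS2 in 1.

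Of the oocyte markers, 6 of 7 measured genes had a mean above 0, against 46.0% of all measured named genes. Of these 6, OOEP at 0.01, ZP2 at 0.02 and ZP4 at 0.02 were close to 0, and ZP3 was at 0.09. NPM2 was below 0, at -0.04. The 2 genes described next had the largest means of this list. GDF9, a growth factor secreted by the oocyte, was at -0.05, 0.28, 0.31 and 0.69, above 0 on 3 of the arrays where GADD45G was, with a mean of 0.31. FIGLA, an oocyte transcription factor, was at 0.07, -0.32, 0.48 and 0.39, with the sign of BCL2L1 on 4 of 4 arrays. The summed oocyte genes lay between 11.17 and 11.53 on the log2 scale in NEFA pools and between 11.22 and 11.47 in control pools, and differed by -0.10, -0.07, 0.28 and 0.20 on arrays 1 to 4. The part of these markers in the values of the 3 genes was not tested.

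**Figure D1:**
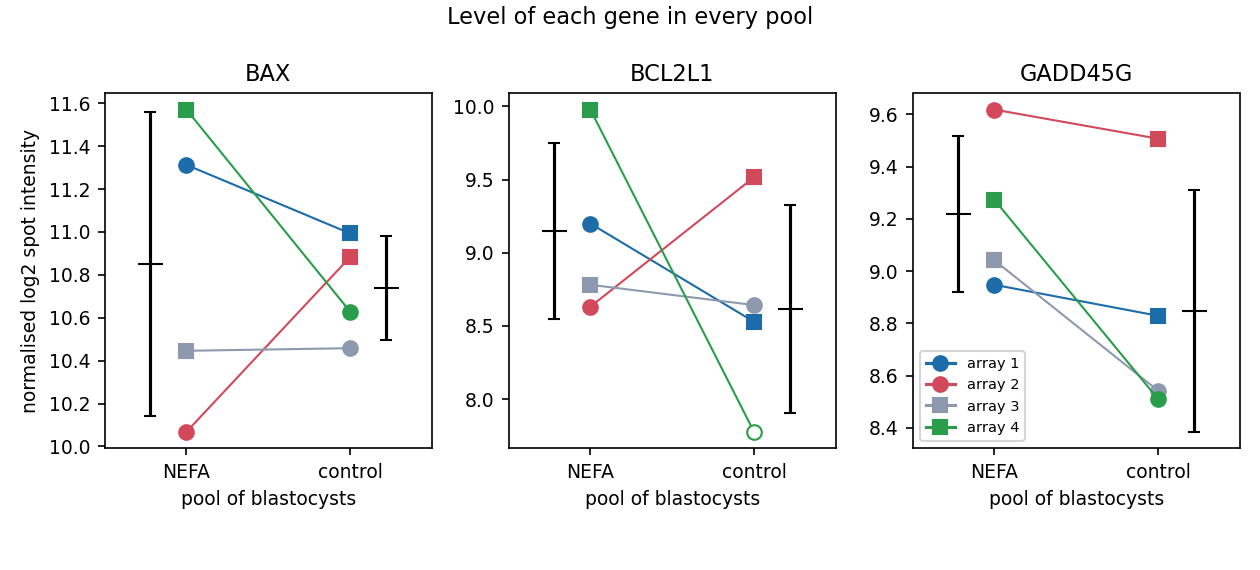
Normalised log2 spot intensity of each gene (vertical axis) in the NEFA and control pools, with a line joining the 2 pools of an array, circles for Cy3, squares for Cy5, an open symbol for a value not above background, and bars for the mean ± SD of 4 pools. The lines of BAX and BCL2L1 cross, with array 2 running opposite to arrays 1 and 4, and all 4 lines of GADD45G are higher in NEFA.

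**Figure D2:**
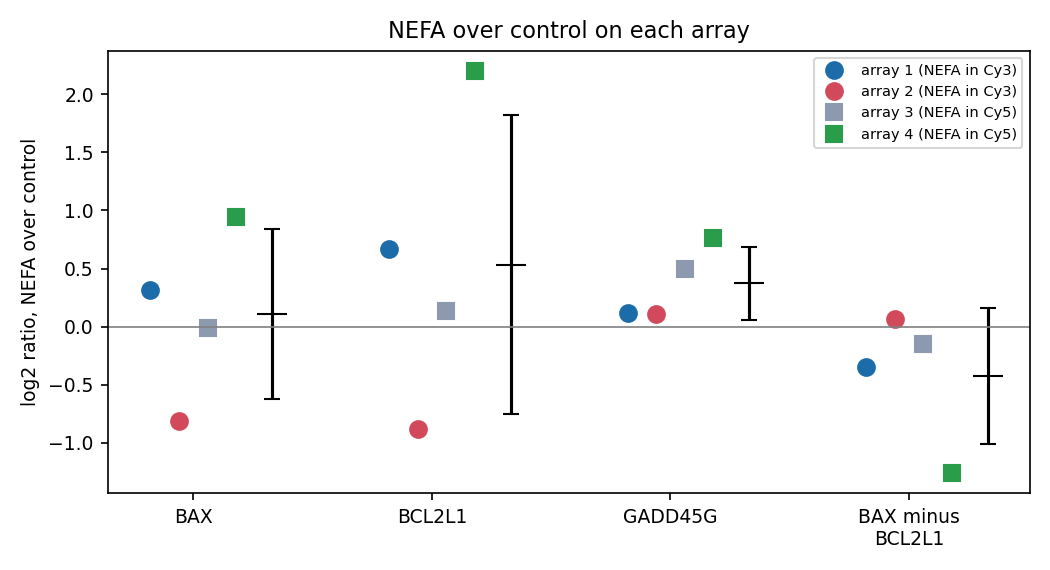
Log2 ratio of NEFA over control (vertical axis) on each array for the 3 genes and for BAX minus BCL2L1, with bars for the mean ± SD of 4 arrays. BCL2L1 ranges from -0.88 on array 2 to 2.20 on array 4, where its control signal was not above background, and GADD45G stays between 0.11 and 0.76.

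The limma fit across all 17145 probes called 0 of them, 0% of those tested, at an adjusted p of 0.05 with the labelled dye orientations. At an unadjusted p under 0.05 the fit had 264 probes. When arrays 2 and 3 were given each other's orientation, the setting in which BAX and BCL2L1 had stood out, 6.96% of the probes passed. The ratios on arrays 1 to 4 then read 0.32, 0.81, 0.01 and 0.94 for BAX, 0.67, 0.88, -0.14 and 2.20 for BCL2L1, and 0.12, -0.11, -0.50 and 0.76 for GADD45G. The mean was 0.52 for BAX, 0.90 for BCL2L1 and 0.07 for GADD45G. All other values here use the orientations that the labels state, which no other source used here checks.

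The balance of BAX to BCL2L1 was followed as the intensity ratio of the 2 probes within a pool. Different probes bind with different strength, so the ratio in 1 pool says nothing of the number of transcripts, and only its difference between the NEFA and the control pool of an array can be read. The log2 ratio of BAX to BCL2L1 was 2.11, 1.44, 1.66 and 1.59 in the NEFA pools of arrays 1 to 4, against 2.46, 1.37, 1.82 and 2.85 in the control pools. The NEFA pools averaged 1.70 ± 0.29 and the control pools 2.12 ± 0.66 (SD, n = 4 each).

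The difference in this balance, NEFA minus control, was -0.35, 0.07, -0.15 and -1.26 on arrays 1 to 4, with a mean of -0.42 ± 0.58 (SD, n = 4). The SD exceeded the mean. On 3 of 4 arrays the balance leaned toward BCL2L1 in the NEFA pool, and array 4 supplied most of the mean. Without array 4 the fitted estimate, with each dye orientation weighted equally, was -0.15. The BCL2L1 control value behind the -1.26 of array 4 is the one not above background, and with it at the limit the difference was -1.06 and the mean -0.37. BAX and BCL2L1 themselves had ratios on the same side of 0 on arrays 1, 2 and 4: both were above 0 on arrays 1 and 4, and both below 0 on array 2. The balance therefore moved less than either gene on array 2, where BAX was at -0.81 and BCL2L1 at -0.88.

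The spot of BCL2L1 had a raised Cy3 background. Its local Cy3 background was 48, 111, 139 and 151 intensity units on arrays 1 to 4, against array medians of 42, 37, 31 and 31. This was 1.14, 3.00, 4.48 and 4.87 times the array's median, and on array 4 it exceeded the background of 98.2% of probes. The 48 spots around it had median Cy3 backgrounds of 46.5, 40.5, 34.5 and 40.5 on the 4 arrays, on arrays 2 to 4 nearer to the array medians than to the value at this spot. In Cy5 its background was 77, 65, 72 and 48, against medians of 71, 69, 64 and 46. At the spots of BAX and GADD45G the background was between 0.887 and 1.24 times the array median in either channel.

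That background belonged to the NEFA pool on arrays 1 and 2 and to the control pool on arrays 3 and 4. On array 4 it made up 38.1% of the raw control signal of BCL2L1, a spot median of 396, and in the NEFA channel 6.19% of 775. With no background correction the BCL2L1 ratios were 0.57, -0.68, -0.15 and 1.39, with a mean of 0.28. With the array's median background in place of the spot's own, an alternative chosen after the raised background was seen, they were 0.72, -0.83, -0.19 and 1.68, with a mean of 0.35. The value on array 3 changed sign under both. The BAX ratio on array 4 was 0.97 and 0.93 under the same alternatives, beside the 0.94 given above.

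With no background correction the difference in balance was -0.28, -0.12, 0.15 and -0.42 on arrays 1 to 4, with a mean of -0.17. With the array's median background it was -0.40, 0.01, 0.19 and -0.75, with a mean of -0.24. The direction on array 3 thus turned under both settings and that on array 2 under the first, and with the array's median background 2 of 4 arrays leaned toward BCL2L1. With the mean of the pixels it was -0.20, -0.31, -0.19 and -0.39 on arrays 1 to 4, with a mean of -0.27. In the authors' deposited table the difference was -0.34, 0.24, -0.17 and -1.23, with a mean of -0.38. The means in the authors' deposited table were 0.10 for BAX, 0.47 for BCL2L1 and 0.41 for GADD45G.

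**Figure D3:**
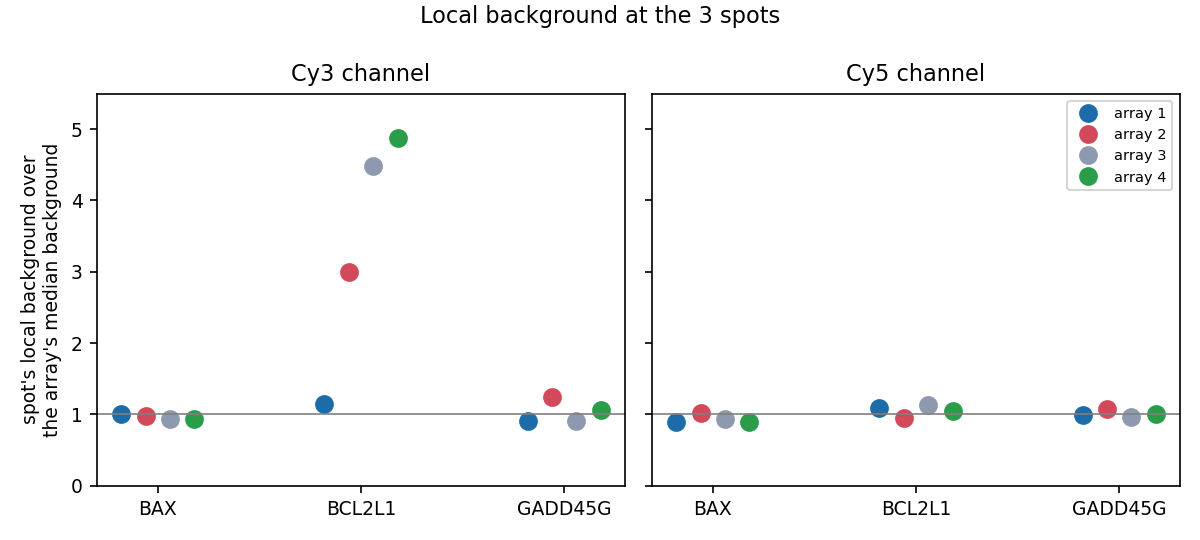
Local background of each gene's spot divided by the median background of the array (vertical axis, linear), by channel and array, with a line at 1. In Cy3 the BCL2L1 spot stands at 3.00 to 4.87 times the median on arrays 2 to 4, and all other values lie near 1.

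**Figure D4:**
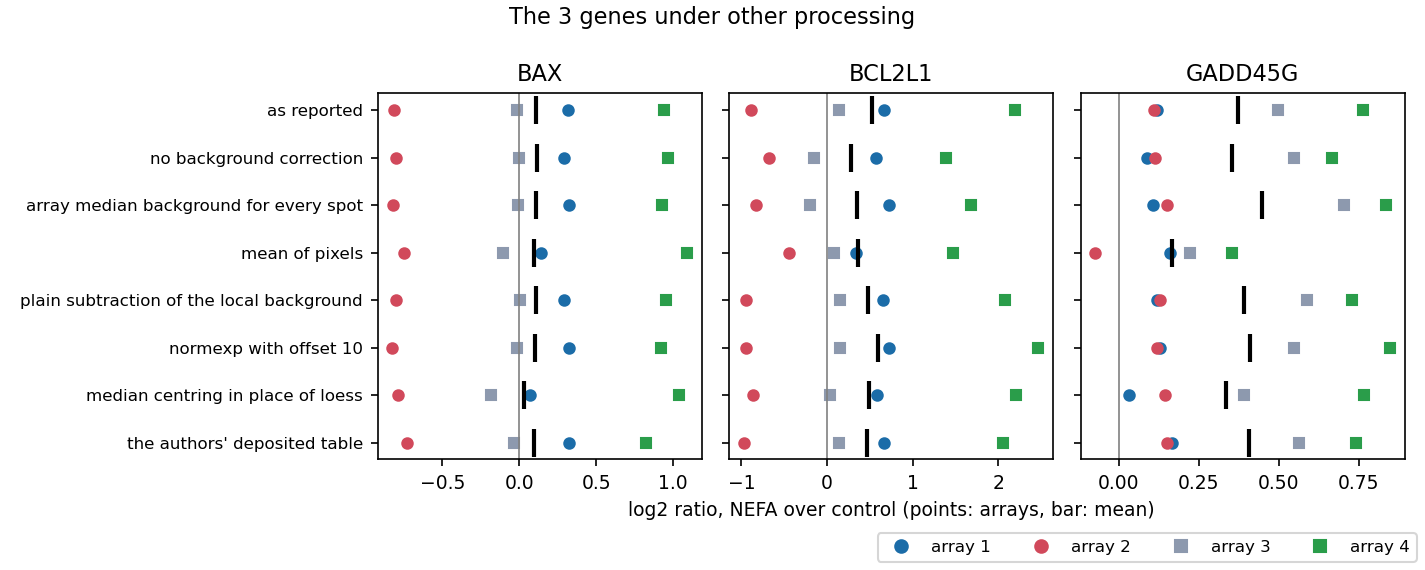
Log2 ratio of NEFA over control of each gene (horizontal axis) under 8 ways of processing the same arrays, with 1 point per array and a bar at the mean. The array 2 point of BAX stays between -0.83 and -0.73, the array 4 point of BCL2L1 runs from 1.39 to 2.47, and GADD45G is closest to 0 with the mean of the pixels.

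Other genes of mitochondrial death did not share one direction either. The lists of apoptosis, DNA damage response and GADD45 genes, 91 in all, had a probe for 57 and a measured probe for 38. The fit called 0 of these 38, against 0% of all probes. Without the 3 genes, 1 of 35 had an unadjusted p under 0.05, against 1.45% of all measured named genes and 1.54% of all probes. Of the 35 genes, 14 (40%) were above 0 and 21 below, against 46.0% of all measured named genes and 48.4% of all probes above 0. Their median was -0.05, against -0.01 over all 17145 probes. The median size of a value, taken without its sign, was 0.11 on the log2 scale both for the 35 genes and for all probes.

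Among the survival members of the BCL2 family, 3 of 6 listed were measured and all 3 were above 0. BCL2, the founding survival protein, was at 0.84, -0.37, -0.47 and 0.43 on arrays 1 to 4, with a mean of 0.11 ± 0.63. MCL1, a short-lived survival protein needed by the early mouse embryo, was at 0.05, 0.62, -0.22 and -0.31, with a mean of 0.03 ± 0.42 (SD, n = 4 each), and 1 of its 3 probes had the opposite sign. Neither gene had the value of BCL2L1 on array 4. The BCL2L10 probe was above background in 0 pools and the BCL2A1 probe in 3 of the 8.

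BAK1, the partner of BAX in pore formation, kept close to 0 on every array, at 0.21, 0.10, 0.07 and 0.21, with a mean of 0.15 ± 0.07 (SD, n = 4). The BAK1 probe was dim: 3 NEFA pools and 2 control pools exceeded the limit, so it was kept through the NEFA pools alone. BOK was not kept. BAX, by comparison, ranged from -0.81 to 0.94.

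Of the BH3-only proteins, which bind the survival members and set BAX free, 4 of 10 were measured and 3 were below 0. BID, which carries the death receptor signal to the mitochondrion, was at -0.09, 0.12, -0.09 and -1.14 on arrays 1 to 4, with a mean of -0.30 ± 0.57 (SD, n = 4). BAD, whose death-promoting action is blocked by phosphorylation downstream of growth factors, was at -0.18 ± 0.20 and exceeded the limit in 2 NEFA pools and 3 control pools. BNIP3L, a receptor for mitophagy, was at -0.06 ± 0.30, and HRK was at 0.10 ± 0.25 (SD, n = 4 each). These genes stood on either side of 0 by less than their SD.

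Proteins that bind or restrain BAX had 3 of 5 measured genes above 0. CLU, a chaperone that binds BAX, had the largest mean, 0.16 ± 0.49, and VDAC2, the mitochondrial channel that holds BAK1 and BAX at the membrane, was at -0.14 ± 0.39 (SD, n = 4 each). Of the factors released through the pores all 4 measured genes were below 0, with a list median of -0.23. Of all measured named genes, 2539 of 4705 were below 0. ENDOG was at only -0.01 ± 0.04 (SD, n = 4), and 1 of the 2 DIABLO probes had the opposite sign. AIFM1, a flavoprotein that moves to the nucleus in some forms of death, was at 0.26, 0.03, -0.78 and -0.90 on arrays 1 to 4, with a mean of -0.35 ± 0.58 (SD, n = 4). Its sign went with the dye orientation.

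Further down the pathway, few genes could be measured. CASP8, the initiator caspase of death receptors, was at 0.19 ± 0.38, with 3 NEFA pools and 1 control pool over the limit. CASP6, an executioner, was at -0.04 ± 0.45, and 1 of its 2 probes had the opposite sign. The inhibitors were CFLAR at -0.12 ± 0.19, with 2 NEFA pools and 4 control pools over the limit and 1 of its 2 probes of opposite sign, and BIRC6 at -0.10 ± 0.05 (SD, n = 4 each). TNF, a ligand of death receptors, was at 0.09 ± 0.32 (SD, n = 4). The probes of APAF1 and CASP9 were not kept.

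The list of DNA damage response genes had 2 of 9 measured genes above 0 and 7 below, with a median of -0.13. RRM2B, a damage-induced subunit of ribonucleotide reductase, was lower on 4 of 4 arrays at -0.85, -0.13, -0.04 and -0.38, with a mean of -0.35 ± 0.36. CCNG1, a cyclin of that response, was at 0.00 ± 0.14 (SD, n = 4 each), and 1 of its 2 probes had the opposite sign. CDKN1A, an inhibitor of the cell cycle, exceeded the limit in 0 pools.

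Growth arrest genes listed with GADD45G, and binding partners of GADD45 proteins, had means on both sides of 0. No named probe used here carried the symbol GADD45A or GADD45B. DDIT3, a transcription factor of the endoplasmic reticulum stress response, was at -0.80, 0.91, 0.12 and -0.10 on arrays 1 to 4, with a mean of 0.03 ± 0.70. PPP1R15A, which acts in restoring translation after stress, was at 0.01 ± 0.51. MAP3K4, the kinase that GADD45 proteins activate, was at 0.24, 0.10, -0.04 and -1.22, with a mean of -0.23 ± 0.67 (SD, n = 4 each). The values of each of these 3 genes lay on both sides of 0.

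The sign pattern of BAX and BCL2L1, above 0 on arrays 1 and 4 and below 0 on array 2, was common on these arrays. It was found in 3103 of 17073 probes, or 18.2%, and in 4 of the 38 measured genes of these lists, BAX, BCL2, BCL2L1 and TNF. The opposite pattern was found in 18.3% of probes and in 12 of the 38 genes, among them BID, BAD and DDIT3. These patterns were defined after the values were seen and are not tested.

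**Figure D5:**
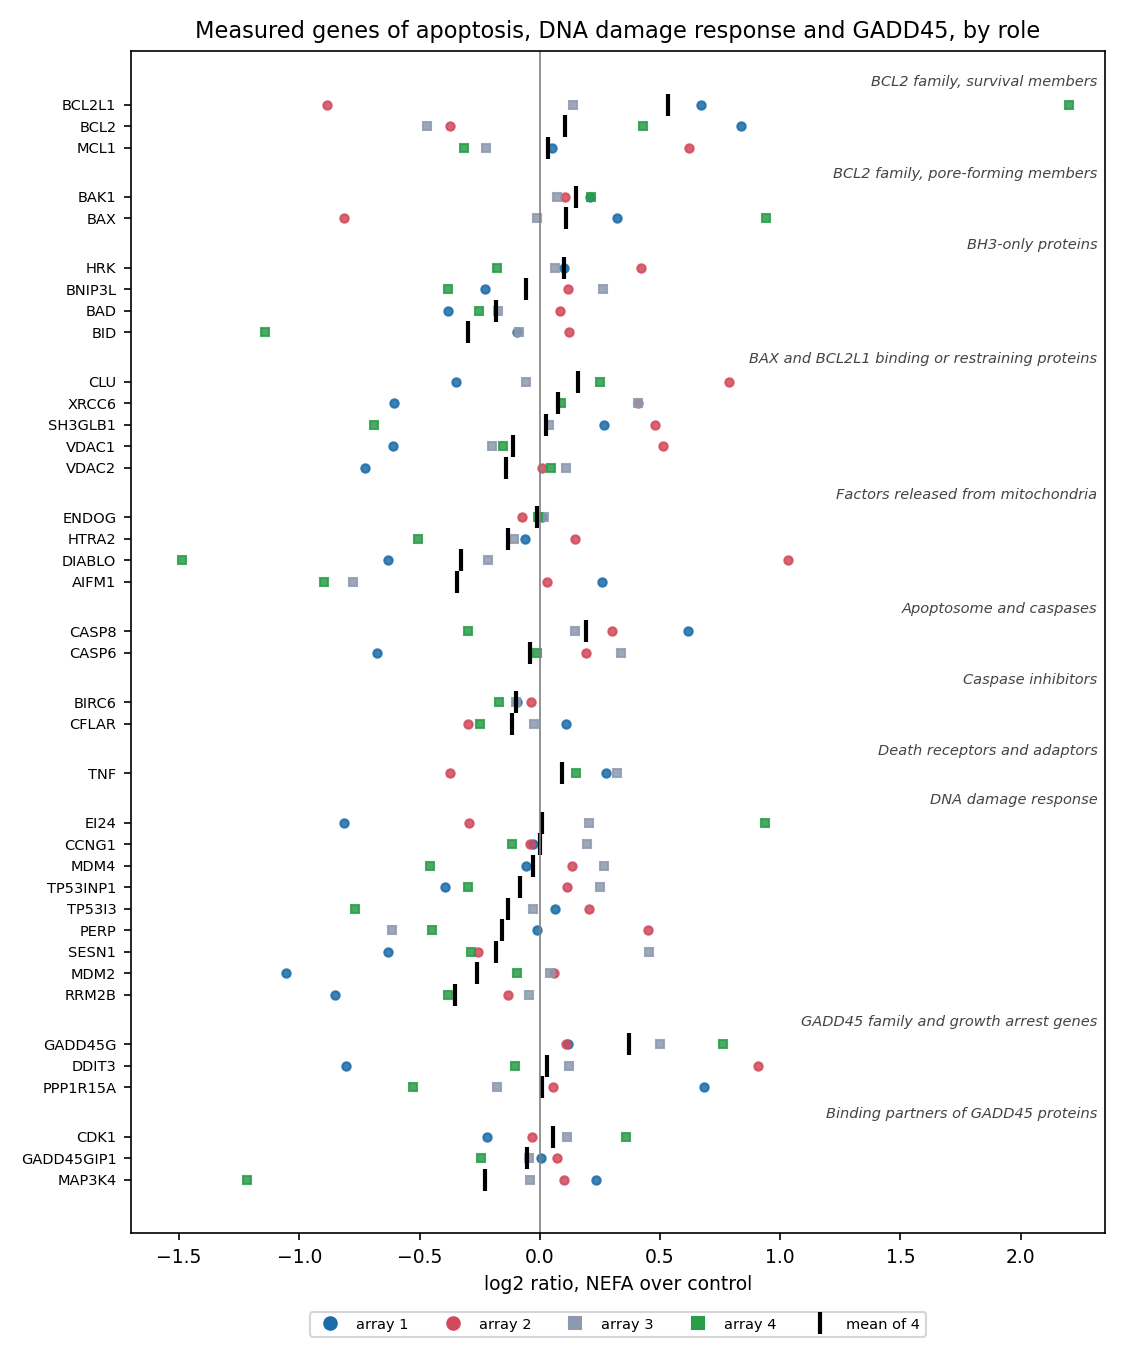
Log2 ratio of NEFA over control (horizontal axis) for the 38 measured genes of the apoptosis, DNA damage response and GADD45 lists, grouped by role, with 1 point per array and a bar at the mean of 4. The points of most genes lie on both sides of 0, and the array 4 value of BCL2L1, 2.20, has a control signal not above background.

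The genes most like each of the 3 were found by the root mean square distance between their 4 ratios, among 4685 named genes without a flagged spot. Nearest to BAX were EWSR1, an RNA-binding protein, at a distance of 0.058, the entry annotated as ssc-mir-181c, SEMA4F and AARS, the alanyl-tRNA synthetase, at 0.069. EWSR1 was at 0.36, -0.86, 0.04 and 1.03 on arrays 1 to 4. The median distance of all genes from BAX was 0.73. MIB2, a ubiquitin ligase, was nearest to BCL2L1 at 0.25, with ratios of 0.72, -0.96, -0.05 and 1.76. It was followed by TMED9, PHF1 and NFKBIA, the inhibitor of NF-kappa-B, at 0.35. GADD45G was nearest to MORF4L2, a chromatin protein, at 0.11, then CELF4, the growth factor VEGFA and ESPL1, the separase of mitosis, at 0.15. MORF4L2 was at 0.22, -0.07, 0.54 and 0.83, and CELF4 exceeded the limit in 1 of 4 control pools only. The median distance of all genes was 1.29 from BCL2L1 and 0.58 from GADD45G. Distances grow with the spread of a gene's own ratios, so those of the 3 genes are not compared with each other.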

How the data were processed

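The authors' deposited scanner files give spot and local background intensity in Cy3 and Cy5, not normalised, per the file headers. Per the labels' protocols, RNA was amplified and dyes were then attached to its guanines. The authors' deposited table of log2 ratios (limma, per the submitters' processing notes, with no version) holds Cy5 over Cy3: its columns followed background-subtracted, loess-normalised ratios of the same arrays with r between 0.966 and 0.995. They were turned to NEFA over control by the labelled dyes. Its column medians were -0.020 to -0.023, and how it was centred is unknown.

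Median intensities were corrected with normexp (offset 50, all spots) and loess within arrays in limma 3.58.1 under R 4.3.3, with control spots at weight 0 and flagged spots left out. Levels per channel were also scaled by Aquantile. The background limit was the mean plus 2 SD of 153 negative control spots. Probes above it in 3 of 4 pools of a condition were kept (17145). The fit had a dye intercept and a NEFA term, with Benjamini-Hochberg adjustment, and was tested on simulated data. SEs come from this fit. Alternatives changed the background correction, normalisation, filter, arrays and orientation, and 2 (mean of pixels, array median background) were added after seeing the data. A gene with several probes was represented by the brightest kept one without a flagged spot.

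Named genes were the 3 genes, all measured genes of the BCL2, BH3-only and GADD45 lists, and the 4 nearest genes of each of the 3. In each other list of apoptosis, DNA damage response or GADD45 partner genes, the gene with the largest value and the brightest were named. Some others, such as ENDOG and DIABLO, were added outside this rule. The lineage and other cell markers did not follow it and were singled out after their values were seen. The members and lists were chosen with earlier results of these data known. Symbols are those of the GEO platform record and some may be outdated: 13146 probes have 1 symbol, 0 have several and 30648 have none here. The current pig gene table (RefSeq) holds 9857 of the 10024 symbols and all 3 genes. Some listed genes are not reported here. The small number of arrays limits the precision.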

Additional observations from a re-analysis of the deposited data

Results flagged for a closer look

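In 45 sets of 4 values tested for a single value far from the other 3, 2 stood out, and chance flags about 1 in 20 such sets. MDM2, a ubiquitin ligase, was at -1.05 on array 1, against -0.10 to 0.06 on the others. VDAC2 was at -0.73 on array 1, against 0.01 to 0.11 on the others. MDM2 was named after its values were seen. No set of BAX, BCL2L1 or GADD45G values, nor the BAX to BCL2L1 balance, met this criterion.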

How the results depend on the processing

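The count of 0 called probes in limma was also 0 under 15 of 17 alternatives, the 4 that leave out 1 array among them (0 each, with 100 to 805 probes at an unadjusted p under 0.05). It was 2 in the authors' deposited table, both lower in NEFA, and 1193 when arrays 2 and 3 took each other's orientation, and the cause was not tested. Over 13 alternatives the fitted estimate of BAX ran from -0.17 to 0.52, below 0 without array 1 and without array 4. BCL2L1 ran from 0.02 to 1.05 and GADD45G from 0.07 to 0.45. The BAX to BCL2L1 difference ran from -0.70 to -0.15, both ends set by leaving out 1 array. These estimates moved by less than the SD over arrays, which for BCL2L1 was 1.29. Using the mean of all probes of a gene gave no value, as each of the 3 genes has 1 probe. Signal over background limits both BCL2L1, at 0.874 to 3.64 times the limit, and GADD45G, at 1.23 to 2.65 times. Each array pairs a NEFA pool with a control pool, so every value is already a paired one, and no replicate block was added to it.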
